A study of Mus musculus with 12 samples.

Results

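The probes described here are 48 of the 51691 catalogue probes of a mouse array that carried little or steady signal in untreated, 1-week and 2-week colorectal tissue and a high signal in 10-week colorectal tumour. Catalogue probes are those whose ID starts with A_, out of 145548 distinct probes on the array. The 48 were chosen on the deposited log2 values by 4 conditions: the means of the 3 earlier groups lay within less than 0.75 of each other, the 10-week mean was at least 2.5 above each of them, every 10-week array was above every other array, and the 10-week mean was at least 7. The rise at 10 weeks and the steady earlier levels are therefore what the choice was made on, and they are given below as a description.

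RNA was taken from colorectal tissue of male C57BL/6 mice in 4 groups of 3 arrays each. The first group was untreated and is labelled normal tissue at week 0. The second was labelled colitis and was taken 1 week after an intraperitoneal injection of azoxymethane (AOM) at 10 mg/kg. The third, also labelled colitis, was taken 2 weeks after that injection, with 2% dextran sulfate sodium (DSS) in the drinking water having started on day 7 for 7 days. The fourth is labelled colorectal tumour and was taken 10 weeks after the injection, in a protocol of 3 DSS courses, each of 7 days and followed by 14 days of plain water. AOM is a carcinogen whose metabolites alkylate DNA in the colon, and DSS injures the colonic lining; together they are a common way to produce colitis-associated tumours in mice. Whether arrays of a group came from separate animals is not in the labels, so any p-value measures the spread between these arrays only. No group analysed here had DSS without AOM or was left untreated for 10 weeks, so AOM, DSS, tumour, age and time cannot be told apart. No slide held arrays of more than 1 group, and all 3 tumour arrays were on 1 slide, so slide and group cannot be told apart either.

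The share of an array's probes that were well above background ran from 33.4% to 44.6%, with the 10-week arrays at 40.9% to 44.6% and the earlier ones at 33.4% to 40.3%, and no probe was saturated. A probe counts as well above background on an array where the scanner software marked at least 1 of its spots so. Unless the deposited values are named, each level below is the log2 of the scanner's processed signal minus the array's 75th percentile, taken over 42481 probes that cleared background on each of the 12 arrays. A level of 0 is thus as bright as that percentile, and a step of 1 is a doubling of signal. Each probe is a fixed 60-base oligonucleotide, and its level depends on its own sequence as well as on its transcript, so levels are compared between arrays and never between probes. The files repeat the probe ID in the columns meant for gene name and position. The probes are therefore named by ID, genes and chromosome positions are not given, and no lists of genes or cell type markers could be applied. Levels in bulk tissue do not tell more cells of a type from more RNA per cell.

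A fixed oligonucleotide reports any transcript that matches it closely, and mammalian genomes hold many families of near-identical gene copies. Probes with shared sequence can bind the same transcripts, so a group of them is fewer than that many separate observations. The 48 sequences were therefore compared with those of all catalogue probes. With blastn at an expectation limit of 1e-04, 13 of the 48 shared sequence with at least 1 other catalogue probe, all on the same strand. Following such matches from probe to probe gave 6 sequence families with 24 probes, of which 13 were among the 48 and 11 were not. The limit sets where families divide, and some of them still overlap at their ends. The search with every sequence reversed gave 0 matches. The other 35 probes shared sequence with no catalogue probe at that limit. None of the printed stretches carries a gene name here, and a match of letters is a description of the probes.

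The first family had 5 probes, all among the 48. The stretch that all 5 hold is shown because these probes were among the largest risers, with bases in capitals where all 5 are the same. The longest identical stretch between any pair of them that matched ran to 38 bases, in A_55_P1999108 and A_55_P2068510.
A_55_P2760536: GGCCACTGATGCTGGtGCCTGATGAc
A_55_P2104076: GGCCACTGATGCTGGgGCCTGATGAa
A_55_P2104071: GGCCACTGATGCTGGtGCCTGATGAc
A_55_P1999108: GGCCACTGATGCTGGtGCCTGATGAc
A_55_P2068510: GGCCACTGATGCTGGtGCCTGATGAc

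The second family held A_55_P1961408, the largest riser of the 48 on the deposited scale, and it is shown in full because its probes differed widely in response. A_55_P1961408 and A_55_P1995018 align from their first base and are the same at 54 of 60 positions, shown in capitals; only the first met every condition. In the other 4 probes the capitals mark the longest stretch shared with another probe of the family. That stretch ran to 28 bases for A_55_P1954799, shared with A_55_P2054373, and to 33 bases for A_55_P2054373 and A_55_P1969960, shared with each other. A_55_P2018863 shared 21 bases with A_55_P1961408.
A_55_P1961408: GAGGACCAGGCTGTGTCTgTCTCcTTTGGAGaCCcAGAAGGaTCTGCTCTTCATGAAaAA
A_55_P1995018: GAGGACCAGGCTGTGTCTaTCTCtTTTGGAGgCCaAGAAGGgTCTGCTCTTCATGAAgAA
A_55_P1954799: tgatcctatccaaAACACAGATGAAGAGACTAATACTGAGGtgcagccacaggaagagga
A_55_P2054373: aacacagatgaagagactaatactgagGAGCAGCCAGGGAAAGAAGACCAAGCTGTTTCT
A_55_P1969960: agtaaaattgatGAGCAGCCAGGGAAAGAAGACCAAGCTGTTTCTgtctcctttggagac
A_55_P2018863: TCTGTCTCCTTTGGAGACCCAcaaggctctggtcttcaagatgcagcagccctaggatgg

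Another family joined A_55_P2054372, which met every condition, to 4 probes that did not. It is shown because all 5 were high at 10 weeks and only A_55_P2054372 had earlier means as close together as the choice asked. Capitals mark the longest stretch shared with another of the 5, which ran to 35 bases between A_55_P1961410 and A_55_P1954798.
A_55_P2054372: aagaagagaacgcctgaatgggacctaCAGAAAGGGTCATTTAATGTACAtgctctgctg
A_55_P2064913: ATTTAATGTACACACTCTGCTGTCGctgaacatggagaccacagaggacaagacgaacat
A_55_P1961410: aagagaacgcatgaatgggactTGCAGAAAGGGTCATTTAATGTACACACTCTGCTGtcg
A_55_P1954798: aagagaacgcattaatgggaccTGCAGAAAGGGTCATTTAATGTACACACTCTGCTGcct
A_55_P1999110: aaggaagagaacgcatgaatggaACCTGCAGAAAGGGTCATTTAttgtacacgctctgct

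The remaining families were pairs and a set of 4. A_55_P1961407, second on that scale, matched A_55_P1971928 at 44 of 49 aligned positions, with a longest identical stretch of 18 bases. A_52_P476535 matched A_51_P497255 at 41 of 49 aligned positions, with a longest identical stretch of 15 bases. The last 15 bases of A_52_P476535, AAGAAGAGAACGCCT, are also the first 15 of A_55_P2054372 above. The capitals in the lines below mark the longest stretch that each pair shares.
A_55_P1961407: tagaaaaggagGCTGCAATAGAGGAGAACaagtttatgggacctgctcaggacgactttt
A_55_P1971928: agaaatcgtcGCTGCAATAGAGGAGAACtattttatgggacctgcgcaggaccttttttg
A_52_P476535: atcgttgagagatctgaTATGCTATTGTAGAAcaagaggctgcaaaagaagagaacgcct
A_51_P497255: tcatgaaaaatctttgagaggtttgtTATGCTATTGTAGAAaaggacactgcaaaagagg
A_55_P1990205 and A_55_P1979007 shared 44 bases, of which the last 30 are shown, all in capitals because all are shared. Their family also held A_55_P2004208 and A_55_P2017820.
A_55_P1990205: CTTCTCTCATAAACTCCTTGCTGAAAAATC
A_55_P1979007: CTTCTCTCATAAACTCCTTGCTGAAAAATC

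All 48 probes were higher at 10 weeks than in each earlier group, by limma with Benjamini-Hochberg adjustment over 62653 probes at a threshold of 0.05, as the choice all but required. Over all probes tested, 22.8% were called higher at 10 weeks than in untreated tissue, 17.5% higher than at 1 week and 23.5% higher than at 2 weeks, and nothing is read from the 48 against those shares. The log2 differences of the 48 from untreated tissue ran from 2.73 to 11.05 with a median of 5.36, beside a median of 0.23 over all probes tested. Against 1 week they ran from 2.93 to 10.99 (median 5.42, beside 0.24 over all probes), and against 2 weeks from 2.75 to 11.48 (median 5.56, beside 0.27). With the 19 probes that were well above background on no untreated array set to the lower bounds described below, the median difference from untreated tissue was 5.26. The standard errors of the 48 differences lay between 0.22 and 0.69. The shift of all probes depended on the scaling: relative to the 75th percentile over all probes, the median difference from untreated tissue was -0.12 in place of 0.23. With it moved the balance of calls, from 14276 higher and 6505 lower to 6842 higher and 13391 lower, and to 8692 higher and 9626 lower on the deposited values. Against 1 week the balance moved from 10984 higher and 5166 lower to 4208 and 11285, and to 5372 and 7534 on the deposited values. Against 2 weeks it moved from 14713 and 4751 to 5840 and 13828, and to 5950 and 7004 on the deposited values. The 48 were called higher under each of these scalings in all 3 comparisons.

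The 48 fell into 3 kinds by how they looked before the tumour stage. On the 9 earlier arrays, 18 were well above background on none, 11 on between 1 and 8, and 19 on all 9. At 10 weeks all 48 were well above background on all 3 arrays, and those arrays alone were enough for all 48 to pass the filter on dim probes (3 or more arrays well above background), so passing it is no property of theirs. For the 18, the earlier signal is only a bound. Their 10-week signal was at least 24.3-fold to at least 1632-fold that of untreated tissue, with a median bound of 62.7-fold. Each bound sets the 10-week mean against, array by array, the higher of the probe's own level and the lowest level of any probe well above background. Some of the 18 were not marked at levels above that lowest one. A_66_P102592 was at -4.97 on untreated array 2, where the lowest level was -6.57. The limit of detection of a given probe can thus lie higher, and every "at least" here holds for this definition only. For the 19 measured on every array, the difference from untreated tissue was 6.64-fold to 63.2-fold with a median of 13.2-fold. For the other 11, the log2 difference ran from 4.17 to 9.19 with a median of at least 6.61, which is the bound of A_55_P2004248, the only 1 of them well above background on no untreated array. Wherever a log2 difference is given below for a probe that was well above background on no untreated array, it is the fitted value. Only an "at least" fold beside it is a bound. Where the probe's own level was above that lowest level on every untreated array, the bound is no lower than the fitted fold, which is then given as fitted. Sizes also depended on the background correction. With normexp and an offset of 50, which raises dim signals by construction, the log2 differences from untreated tissue ran from 1.31 to 7.42 with a median of 2.95, and 42 of the 48 moved by over 1.5 times in fold. Under the other 3 scalings none of the 48 moved by that much. With normexp the log2 difference was 7.42 for A_55_P1961408, 6.64 for A_55_P2760536, 5.42 for A_51_P484526 and 3.12 for A_55_P1972868, beside 11.05, 9.19, 7.82 and 7.32. It was 6.11 for A_52_P221756, which was bright on every array, beside 5.98. The folds and bounds below hold for the scanner's own background subtraction.

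A_55_P1961408 had the largest rise of the 48 on the deposited scale, though the order among probes dim before 10 weeks is not determined. It was at -7.02, -5.15 and -7.34 on the untreated arrays, -5.57, -6.49 and -7.27 on the 1-week arrays and -6.66, -7.25 and -6.91 on the 2-week arrays, and was not well above background on any of them. At 10 weeks it was at 3.37, 5.24 and 5.01. In processed signal, the untreated arrays read 3.17, 11.9 and 2.51 units and the 10-week arrays read 4773, 19919.9 and 15139. The lowest 10-week array stood 8.52 above the highest earlier array on the log2 scale; that the groups did not overlap on the deposited values was part of the choice. The mean went from -6.50 ± 1.18 (SD, n = 3) to 4.54 ± 1.02 (SD, n = 3), a log2 difference of 11.05 ± 0.64 (SE). In fold this was at least 1632 over untreated tissue, at least 1723 over 1 week and at least 2133 over 2 weeks. Without untreated array 2, the brightest of the untreated arrays, the log2 difference was 11.72, and without 10-week array 1 it was 11.63. Its near-copy A_55_P1995018 was at 2.75, 4.76 and 4.42 at 10 weeks and at -6.03, -6.84 and -6.44 on average in the earlier groups. That is 1031-fold over untreated tissue as fitted, and its bound has the same value. It was left out because its 3 earlier means spanned 0.79 on the deposited scale; it was marked well above background on none of the 9 earlier arrays.

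Other probes of the same family rose by less. A_55_P1954799 went from -7.16, -7.16 and -7.15 on the untreated arrays to -1.87, 0.17 and 0.097 at 10 weeks, at least 67.2-fold. A_55_P2054373 went from -6.65, -5.34 and -5.70 to -1.46, 0.79 and 0.67, at least 58.3-fold. Neither was well above background on an earlier array. A_55_P1969960, which matched A_55_P2054373 at 40 of 43 aligned bases, reached only -4.27, -3.09 and -3.18 at 10 weeks. Its log2 difference from untreated tissue was 2.89 ± 0.40 (SE, adjusted p = 0.000606 by limma with Benjamini-Hochberg adjustment), or at least 7.22-fold. Its deposited mean of 5.05 missed the level of 7. A_55_P1969960 was well above background on no earlier array, so it passed the filter on dim probes only through its 10-week arrays. It was also found through probes chosen on the rise, and its p-value is a description. A_55_P2018863 matched A_55_P1961408 at 37 of 41 aligned bases, 21 of them in a row. A_55_P2018863 was well above background on none of the 12 arrays and ran from -6.61 to -5.51 at 10 weeks. Sharing a stretch with a probe of the 48 thus went with a high 10-week signal in some probes and not in others.

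The 5 probes of the first family rose together, with log2 differences from untreated tissue of 8.47 to 9.19 in the 4 that were well above background on an untreated array. A_55_P2760536 was at -4.70, -5.02 and -5.26 on the untreated arrays, -5.68, -5.23 and -5.42 on the 1-week arrays and -4.58, -5.75 and -4.96 on the 2-week arrays. At 10 weeks it was at 3.09, 4.85 and 4.65, a log2 difference of 9.19 ± 0.43 (SE), or 583-fold, with 1 of the untreated arrays well above background. A_55_P2104071 went from -4.53, -4.70 and -5.31 untreated to 3.12, 4.98 and 4.62, a difference of 9.08 ± 0.40. In both, the lowest 10-week array was more than 7 above the highest earlier one. A_55_P1999108 went from -4.13, -5.02 and -4.87 to 2.75, 4.50 and 4.20, a difference of 8.49 ± 0.45. A_55_P2068510 went from -4.57, -4.34 and -4.75 to 2.87, 4.60 and 4.28, a difference of 8.47 ± 0.44. These 4 were well above background on between 2 and 7 of the 9 earlier arrays, so a faint signal was present before the tumour stage. A_55_P2104076, whose shared stretch departs from the other 4 in the lower-case bases above, was well above background on none of the earlier arrays. It went from -7.38, -6.98 and -7.43 untreated to 1.26, 3.14 and 2.88 at 10 weeks, at least 523-fold. Without 10-week array 1, its log2 difference was 10.28 in place of 9.69. Since the 5 share sequence, they are not 5 separate observations.

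A_55_P1961407 was well above background on no earlier array, at -6.00, -6.31 and -5.91 on the untreated arrays, -6.65, -5.82 and -5.71 on the 1-week arrays and -5.47, -6.07 and -6.34 on the 2-week arrays. At 10 weeks it was at 2.71, 4.66 and 4.41, a log2 difference from untreated tissue of 10.00 ± 0.46 (SE), or 1025-fold as fitted. Its bound has the same value and adds nothing to that. Without 10-week array 1 the difference was 10.61. Its relative A_55_P1971928 was at -0.21, 2.05 and 2.24 at 10 weeks, at least 249-fold over untreated tissue, and missed only the limit on the spread of the earlier means. A_52_P476535 went from -6.94, -6.85 and -5.73 untreated to 0.045, 2.10 and 1.96, at least 201-fold, with a log2 difference of 7.87 that was 8.54 without 10-week array 1. Its relative A_51_P497255 ran from -7.35 to -7.22 at 10 weeks and was well above background on none of the 12 arrays. A_55_P2054372, whose start overlaps the end of A_52_P476535, went from -6.11, -7.28 and -7.20 untreated to -0.95, 1.48 and 1.28 at 10 weeks. That was at least 133-fold, with a log2 difference of 7.47, or 8.24 without 10-week array 1. Of the 4 relatives of A_55_P2054372, A_55_P2064913 reached 2.87, 4.77 and 4.46, A_55_P1961410 2.14, 4.14 and 3.82, A_55_P1954798 1.79, 3.77 and 3.50 and A_55_P1999110 0.99, 2.93 and 2.75. All 4 were called higher than untreated tissue by limma with Benjamini-Hochberg adjustment. They met the conditions on the rise, the 10-week level and the order of arrays, which all but required those calls. The calls are a description. A_55_P2064913 was at least 1288-fold and A_55_P1961410 at least 755-fold over untreated tissue, and the log2 differences of A_55_P1954798 and A_55_P1999110, each well above background on 1 untreated array, were 8.35 and 8.06. Each was left out only because its earlier means spanned 0.75 or more. A_55_P2064913 was well above background on none of the 9 earlier arrays and each of the other 3 on 1 of them.

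The family of A_55_P1990205 divided. A_55_P1990205 went from -7.29, -6.93 and -7.30 on the untreated arrays to -1.45, 0.51 and -0.064 at 10 weeks, at least 77-fold. A_55_P1979007, with 44 bases in a row in common, went from -7.08, -6.12 and -7.15 to -2.57, -0.38 and -0.87, at least 36.3-fold. Both were well above background on none of the earlier arrays. A_55_P2004208 went from -5.65, -5.61 and -5.56 to -3.85, -3.84 and -3.70, a log2 difference of 1.81 ± 0.32 (SE, adjusted p = 0.00222 by limma with Benjamini-Hochberg adjustment). Against 1 week its difference was 0.88 ± 0.32 (adjusted p = 0.0662 by the same limma fit), which did not pass the threshold. A_55_P2017820 was well above background on no array and ran from -7.41 to -7.32 at 10 weeks. Of the 11 relatives in all 6 families, 6 missed only the limit on the spread of the earlier means, and the other 5 missed the rise and the level.

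Among the 35 probes with no sequence relative, the 3 with the largest rise over the highest earlier mean on the deposited scale were A_51_P484526, A_55_P1972868 and A_66_P135522. A_51_P484526 was at -5.41, -4.98 and -4.83 on the untreated arrays, -5.24, -4.76 and -4.93 on the 1-week arrays and -5.29, -4.50 and -4.49 on the 2-week arrays. At 10 weeks it was at 2.44, 3.32 and 2.49, a log2 difference from untreated tissue of 7.82 ± 0.29 (SE), or 226-fold with 1 untreated array well above background, and its 10-week arrays lay within 0.88 of each other. A_55_P1972868 went from -7.23, -7.25 and -7.40 untreated to -1.24, 0.97 and 0.35, at least 98.9-fold; its log2 difference of 7.32 was 7.95 without 10-week array 1. A_66_P135522 went from -6.16, -7.16 and -6.21 to -0.34, 0.73 and 0.12, at least 89.5-fold. The last 2 were well above background on none of the 9 earlier arrays, so these are bounds.

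A pair of other probes reached a high 10-week level from an earlier level that was already well measured on all 9 arrays. A_52_P221756 was at -0.54, -0.89 and -0.64 on the untreated arrays, -1.35, -1.10 and -0.80 on the 1-week arrays and -0.83, -0.74 and -0.88 on the 2-week arrays, and at 5.06, 5.87 and 4.94 at 10 weeks. In processed signal its earlier arrays read between 183 and 285 units and its 10-week arrays read 15441, 30801 and 14405. The log2 difference was 5.98 ± 0.24 (SE) from untreated tissue, or 63.2-fold, and 6.11 ± 0.24 from 2 weeks. A_52_P385801 was at -1.46, -1.51 and -1.59 on the untreated arrays, -2.66, -1.95 and -1.92 on the 1-week arrays and -2.22, -2.14 and -2.11 on the 2-week arrays. At 10 weeks it was at 3.89, 4.91 and 4.01, a difference of 5.79 ± 0.27 from untreated tissue, or 55.4-fold. The 1-week and 2-week arrays of A_52_P385801 all lay below its untreated arrays, by 0.64 in the mean at 2 weeks.

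The other 34 probes rose by 2.73 to 6.61 on the log2 scale over untreated tissue, with a median of 4.52, the 12 that were well above background on no untreated array being set at their lower bound. Of these, 17 were well above background on all 12 arrays, and their 10-week signal was 6.64-fold to 41.2-fold that of untreated tissue with a median of 12.7-fold. A_66_P101490 stood at the top of those 17, going from -2.19, -2.22 and -2.15 to 2.91, 3.76 and 2.86. A_66_P108922 stood at the bottom, going from -3.63, -4.06 and -3.60 to -1.15, -0.64 and -1.31. The narrowest gap between the lowest 10-week array and the highest earlier array among all 48 was 1.91, in A_52_P320971. That probe was at -0.74, -0.54 and -0.44 on the untreated arrays, -0.59, -0.53 and -0.59 on the 1-week arrays and -0.32, -0.72 and -0.11 on the 2-week arrays, and at 2.12, 3.16 and 1.80 at 10 weeks. The median gap over the 48 was 4.05. Examples from the dim end are A_51_P285725, which was well above background on no earlier array and went from -7.26, -7.32 and -7.42 to -1.33, -0.57 and -1.37, at least 45.6-fold, and A_55_P2004248, well above background on 1 earlier array, which went from -5.50, -5.78 and -7.10 to 0.17, 1.55 and 0.16. These 5 were singled out after their values were seen. In A_55_P1954799, A_55_P2054373 and A_55_P1979007, leaving out 10-week array 1 raised the log2 difference from untreated tissue to 7.29, 6.63 and 6.16, from 6.63, 5.90 and 5.51. In A_66_P102592, leaving out untreated array 2 raised it from 6.04 to 6.66.

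Before the tumour stage the 48 moved little, as the choice required. The 1-week mean minus the untreated mean ran from -0.66 to 0.59 over the 48, and was above 0 in 24 of them. The 2-week mean minus the 1-week mean ran from -0.66 to 0.71, and was above 0 in 29. None of the 48 was called between 2 weeks and untreated tissue by limma with Benjamini-Hochberg adjustment, and 2 had an unadjusted p below 0.05. They were A_52_P385801 and A_55_P1967736, both lower at 2 weeks, with log2 differences of -0.64 ± 0.27 and -0.67 ± 0.28 (SE). Over all probes 8.38% were called either way in that comparison, and nothing is read from the 48 beside it because the limit on the earlier means was part of the choice. With only the untreated and 2-week arrays in the fit, A_52_P385801 was called (adjusted p = 0.0467 by limma with Benjamini-Hochberg adjustment).

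The 10-week arrays did not agree among themselves on how high these probes went. The SD over the 3 arrays had a median of 0.66 over the 48 at 10 weeks, beside 0.26 in untreated tissue, 0.32 at 1 week and 0.38 at 2 weeks. Array 2 was the highest of the 3 for all 48, by 0.51 to 2.43 over array 1 and by 0.075 to 1.43 over array 3. Of the 30058 catalogue probes well above background on all 3 of these arrays, 34.9% were highest on array 2. The 48 were all highest on array 2 under each of the 5 scalings tried, where that share ran from 34.9% to 45.8%. How the probes were chosen set no order among the 10-week arrays. The 48 are not independent of each other, and the order of 3 arrays has no test here.

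A second difference among the 10-week arrays was seen mainly in the probes that had a sequence relative at the blastn limit. Array 1 was lower than both other arrays by at least 1 on the log2 scale for 15 of the 48 and for 0.539% of the 30058 probes. All 13 probes with sequence relatives were among those 15, against 2 of the other 35, A_55_P1972868 and A_55_P2208579. The 13 belong to 6 families, which are not all separate in sequence. A_52_P476535 overlaps A_55_P2054372 by 15 bases, across 2 families. The end of A_55_P2064913, a relative of A_55_P2054372, also nearly matches the start of A_55_P2104071 in the first family. The 13 are thus fewer than 13 separate observations, and may be fewer than 6. For the 13, array 3 minus array 1 was between 1.39 and 2.23 with a median of 1.64. For the other 35 it was between -0.69 and 1.59 with a median of 0.12, and array 1 was the lowest in 23 of them and array 3 in 12. Of the 8 relatives outside the 48 that were well above background on all 3 of the 10-week arrays, array 1 was lowest by at least 1 in 7. The exception was A_55_P2004208, in which array 3 minus array 1 was 0.15. The step of 1 was chosen after the values were seen. With probes that were well above background on no untreated array (9 of the 13 and 10 of the 35) at their lower bound, the log2 difference from untreated tissue ran from 5.18 to 10.67 with a median of 8.47 in the 13, and from 2.73 to 7.82 with a median of 4.60 in the 35. These differences chose the probes and carry no test. A_51_P484526, which has no sequence relative and rose by 7.82, had array 3 above array 1 by 0.049. On the earlier arrays, 9 of the 13 and 9 of the 35 were well above background nowhere. Array 1 also had the largest share of probes well above background of the 12 arrays, at 44.6%, and the part of this in the differences was not tested.

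The edges of the choice were not empty. On the deposited scale, the 5 members nearest the limit on the spread of the earlier means were A_51_P466229 at 0.71, A_55_P2104076 at 0.71, A_55_P2054373 at 0.67, A_55_P1979007 at 0.66 and A_51_P496905 at 0.64. The nearest probes outside, which met every other condition, were A_66_P140996 at 0.77, A_55_P2141084 at 0.78, A_55_P2944597 at 0.79, A_55_P2064913 at 0.79 and A_55_P1995018 at 0.79. In all, 49 catalogue probes missed only that limit, of which 9 were well above background on none of the 9 earlier arrays and 11 on all 9. The smallest rises inside were A_66_P108922 at 2.53, A_51_P352385 at 2.56, A_51_P475342 at 2.84, A_52_P320971 at 2.85 and A_55_P2883452 at 2.90, and the nearest outside were A_55_P2170019 at 2.49, A_66_P134405 at 2.46, A_51_P503896 at 2.40, A_66_P136072 at 2.40 and A_51_P518051 at 2.40. For the 10-week mean, the lowest inside were A_52_P52946 at 7.11, A_51_P303061 at 7.42, A_55_P1979007 at 7.44, A_55_P2805868 at 7.48 and A_55_P2617843 at 7.51. The nearest below were A_52_P260696 at 6.99, A_52_P494168 at 6.96, A_51_P431539 at 6.92, A_66_P123535 at 6.92 and A_55_P2575496 at 6.79. In all, 1631 catalogue probes missed only the rise and 49 missed only the 10-week level. No probe missed only the condition that every 10-week array be above every other array.

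The 48 sequences had a median GC content of 45%, between 35% and 55%, beside 41.7% over all catalogue probes and 45% over the catalogue probes well above background on all 3 of the 10-week arrays. At least 1 of the 3 forward reading frames held no stop codon in 41 of the 48 (85.4%), beside 79.6% of catalogue probes and 83.4% of those well above background at 10 weeks. The polyadenylation hexamer AATAAA, searched on the probe's own strand only, was in 3 of the 48 (6.25%), beside 10.3% and 9.51%. All 3 belong to the first family and share sequence, so they are fewer than 3 separate observations. In base composition and in these features the 48 thus lay near the other probes that were bright at 10 weeks; no test was made.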

How the data were processed

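Total RNA from 12 tissue samples was hybridised to 12 1-colour (Cy3) arrays with 180870 spots, of which 4974 were controls and were left out. The authors scanned them with Agilent Feature Extraction 10.7.1.1, per the submitters' processing notes, and deposited the processed intensity of each spot with its background flags, per the file headers. They also deposited a table of log2 values, whose normalization is not given in the sources used here; its columns had equal medians of 2.92 and correlated at 0.995 or more with the log2 processed intensity of the same array. The 48 probes were chosen on that table.

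Here spots flagged as outliers were dropped, spots of 1 probe were averaged, and log2 intensities were scaled to the 75th percentile of 42481 probes that cleared background on every array. The 62653 probes that cleared background on 3 or more arrays were tested with limma 3.58.1 in R 4.3.3, all 4 groups in 1 fit, with Benjamini-Hochberg adjustment at 0.05. The procedure was tested on simulated data. Sequences were compared with blastn 2.17.0. No probe could be tied to a gene, so planned gene and cell type lists were not used.

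The probes, the rules and the tests were chosen with earlier results of these data known. The probes named are the 12 with the largest rise, the 8 with the highest 10-week mean, the 5 nearest each threshold on either side, all sequence relatives, and those said to be chosen after their values were seen. The array number in the labels was not treated as a pairing of samples in the main fit. Deviations of same-numbered arrays from their group means correlated between -0.099 and 0.19 (18 pairs). Differently numbered arrays of different groups correlated between -0.23 and 0.20 (36 pairs). Such correlations cannot show whether samples were paired. The number of arrays limits the precision. Other scalings, background correction, filters, fits and left-out arrays were tried, and 1 further alternative was added after the data were seen.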

Additional observations from a re-analysis of the deposited data

How the results depend on the processing

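The number of probes chosen was 28 with a limit of 0.5 on the spread of the earlier means and 74 with a rise of at least 2, in place of 48. It ran from 41 to 67 when 1 array was left out in turn. Applied to the scanner values the same conditions chose 60, 46, 52 and 47 probes (scaled to the 75th percentile of probes above background, to that of all probes, by quantiles, and with normexp), of which 48, 43, 48 and 33 were among the 48. With the limit on the earlier means waived for probes well above background on no earlier array, an alternative added after the data were seen, 57 were chosen. The 14 probes named by size kept their direction and their call against untreated tissue in all 154 alternative values with a test, with adjusted p up to 0.000144 in limma with Benjamini-Hochberg adjustment, but not their size: with normexp the median log2 difference of the 48 was 2.95 in place of 5.36. All 48 were called higher in all 3 comparisons under every alternative run. The number of all probes called higher at 10 weeks moved more. Scaled to all probes it was 6842 (against untreated), 4208 (against 1 week) and 5840 (against 2 weeks), and by quantiles 8728, 5435 and 6025. With normexp it was 9385, 6793 and 6768, and on the deposited values 8692, 5372 and 5950. Leaving out 1 array gave 9844 to 12325, 6054 to 10254 and 8769 to 12586. The number called either way between 2 weeks and untreated tissue was 2518 with no filter, 3329 with only those groups in the fit, 8810 with slide as a random block (consensus correlation -0.09), and 1802 to 5839 when 1 array was left out. With the replicate block it was 3988, and the numbers called higher were 13620, 10177 and 13904. With the block, none of the 48 was called between 2 weeks and untreated tissue by limma with Benjamini-Hochberg adjustment (2 had an unadjusted p below 0.05). The causes of these moves were not tested. Signal over background limits the folds of the 18 probes that were dim on all earlier arrays, which are bounds, and 10-week arrays that all lay on 1 slide limit every 10-week comparison.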
